A study of Homo sapiens with 3 samples.

Results

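The genes described here serve antigen presentation by MHC class I, and were taken by their annotated symbols: the heavy chain genes HLA-B, HLA-C, HLA-E and HLA-F, the light chain gene B2M, the peptide transporter genes TAP1 and TAP2, the loading factor gene TAPBP and the regulator gene NLRC5. These 9 genes, of the 18131 with a probe set of their own, had 44 of the 49388 probe sets on the array, 43 with 1 gene symbol and 1 shared by HLA-B and HLA-C. Transcript levels came from Affymetrix arrays of the established human prostate cancer cell line LNCaP, transfected for 48 h with 75 nM of HOXD-AS1 siRNA 1, HOXD-AS1 siRNA 2 or a negative control siRNA, with 1 array in each of the 3 groups. The medium lacked phenol red and held serum, and the lipid carrier was common to all cultures. HOXD-AS1 is a long non-coding RNA of the HOXD gene cluster, and the series sought genes that differed from the control with both siRNAs. With 1 array per group no difference has a replicate check and no test was possible, and precision is limited by how few arrays there are.

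The siRNA sequences are shown because they are the designed difference between the arrays. Capitals mark the last 2 bases, which are UU in both HOXD-AS1 siRNAs and TT in the control siRNA.
HOXD-AS1 siRNA 1: gaaagaaggaccaaaguaaUU
HOXD-AS1 siRNA 2: gcccuuucugaccugcuuaUU
Control siRNA: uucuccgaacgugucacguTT

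MHC class I molecules show peptides from inside the cell to cytotoxic T cells and to natural killer cells. Proteasomes cut proteins into peptides, the TAP1-TAP2 transporter carries them into the endoplasmic reticulum, and tapasin, the product of TAPBP, holds empty class I molecules at the transporter until a peptide binds. Interferons raise the transcription of most of these genes, and NLRC5 acts at the heavy chain, B2M, TAP1 and PSMB9 promoters together with RFX, CREB/ATF and NF-Y factors. Low class I presentation is a known feature of many prostate cancers.

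The arrays were closely matched, with median intensities of 25.7 with siRNA 1, 26.1 with siRNA 2 and 26.1 with the control siRNA. Intensities were put on the log2 scale after values under 25.96, the median over all 3 arrays, were raised to that floor, and a probe set or gene is called measured where at least 1 array was above it. No probe set here was annotated to HOXD-AS1 (HAGLR), so the targeted RNA itself was not analysed here. The labels give an inhibition rate of 0.23 for siRNA 1 and 0.25 for siRNA 2, against 1 for the control, and tie the siRNA positions to the coding sequence of WDR5, which leaves their meaning unclear. The source labels also name the siRNA 1 cells LNCaP-Bic, the siRNA 2 cells LNCaP-AI and the control cells LNCaP, while the cell line label is LNCaP throughout, so siRNA and any difference between such cells cannot be told apart. All 6 luminal prostate markers with a probe set (KLK3, KLK2, TMPRSS2, KRT8, KRT18 and HOXB13) were measured, with summed intensities of 13866 with siRNA 1, 11477 with siRNA 2 and 13165 in the control. They did not go one way with siRNA 2, where KLK2 differed by -0.68 and KLK3 by -0.43 on the log2 scale, KRT8 by 0.40 and TMPRSS2 by 0.30, and the part of this in the members' values was not tested. Of 6 leukocyte markers with a probe set only CD68 was measured (69.8 with siRNA 1, 88.7 with siRNA 2 and 66.2 in the control), while the pan-leukocyte marker PTPRC read 3.14 on each array. Among 4 markers of androgen receptor-negative prostate lines with a probe set, CD44, CAV1 and KRT5 were under the floor. VIM was measured, at 593 with siRNA 1, 735 with siRNA 2 and 660 in the control.

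Of the 9 genes 8 were measured, and their median differences from the control lay close to those of all genes. The median log2 difference from the control was -0.00079 with siRNA 1 and -0.035 with siRNA 2, beside medians of 0.0030 and 0.014 over all 11286 measured genes. With both siRNAs 2 of the 8 were higher than the control (TAP1 and TAPBP) and 3 were lower (HLA-E, HLA-F and TAP2), where 34.3% of all measured genes were higher and 32.1% lower with both. No member gene was 2-fold or more from the control. That threshold was passed by 1.36% of measured genes upward and 1.76% downward with siRNA 1, and by 0.789% and 0.603% with siRNA 2. At 1.5-fold, TAP2 alone was lower with siRNA 1 (1 of 8 genes, 6.16% of all measured genes) and 0 of 8 were higher (6.9%). With siRNA 2, TAPBP alone was higher at 1.5-fold (1 of 8, 4.75%) and 0 of 8 were lower (4.67%). A count of 1 among 8 genes does not set the members apart from these shares. Both siRNA differences use the same control array, so a high or low control value moves them together.

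**Figure D1:**
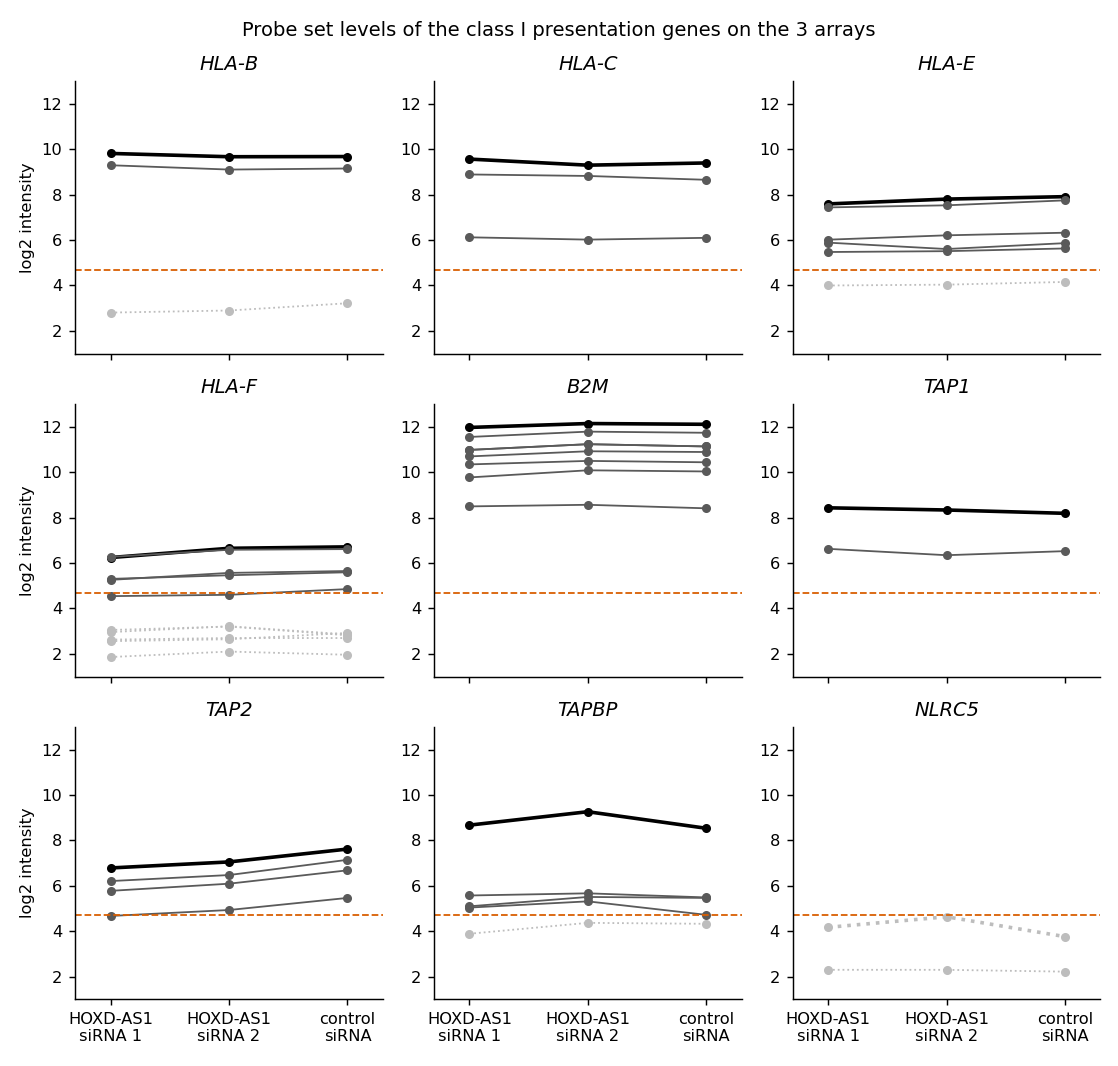
Log2 intensity (vertical axis) of every probe set with 1 gene symbol on the HOXD-AS1 siRNA 1, HOXD-AS1 siRNA 2 and control siRNA arrays, 1 panel per gene and 1 line per probe set. The thick line is the probe set used for the gene, dotted grey lines are probe sets not above the floor on any array, and the dashed line is the floor, 25.96 on the intensity scale; all 4 TAP2 lines lie highest in the control, and both NLRC5 lines stay under the floor.

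TAP2, which encodes 1 of the 2 subunits of the ATP-driven peptide transporter, was lower with both siRNAs in every probe set. The probe set with the highest signal read 110 with siRNA 1 and 133 with siRNA 2, against 196 in the control. These are log2 differences of -0.83 and -0.57, or 1.78-fold and 1.48-fold lower, so the siRNA 2 value stayed just inside 1.5-fold. In the next probe set TAP2 read 74.0 with siRNA 1 and 88.9 with siRNA 2, against 141 in the control, with differences of -0.94 and -0.67. The third read 54.9 and 68.3 against 103 in the control, with differences of -0.90 and -0.59. The dimmest probe set read 25.5 with siRNA 1, under the floor, and 30.6 with siRNA 2, against 44.2 in the control, so its difference of -0.77 with siRNA 1 is a lower bound on the size while that with siRNA 2 was -0.53. All 4 probe sets thus put the control highest, siRNA 2 next and siRNA 1 lowest. Over them the mean difference was -0.86 ± 0.074 with siRNA 1 and -0.59 ± 0.059 with siRNA 2 (SD, n = 4 probe sets). Probe sets of a gene are read from the same hybridisation and can share probes, so this spread is not an error between samples. In 2 of the 4 the siRNA 1 value was lower than the siRNA 2 value by the same log2 amount, -0.27.

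Among all measured genes 2.88% were as low as TAP2 or lower with siRNA 1 and 5.09% with siRNA 2, and 112 genes (0.992%) were as low or lower with both. Of 1610 genes with at least 4 measured probe sets, a comparison chosen after the TAP2 values were seen, 10 (0.621%) had every probe set lower by 0.5 or more on the log2 scale with both siRNAs, TAP2 among them, and 9 (0.559%) had every one higher by that much. In these cultures fewer cells with the transcript and less transcript per cell cannot be told apart.

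TAP1, the other transporter subunit, did not follow TAP2. Its brighter probe set read 344 with siRNA 1 and 322 with siRNA 2, against 291 in the control, differences of 0.24 and 0.15. The other read 98.4 with siRNA 1 and 81.0 with siRNA 2, against 91.7 in the control, differences of 0.10 and -0.18. The siRNA 1 array was highest in both probe sets, whereas the order of siRNA 2 and control changed between them. Averaged over both probe sets, TAP1 with siRNA 2 was -0.016 from the control. No TAP1 probe set was 1.5-fold from the control in either direction.

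The sequences before the starts of TAP2 and TAP1 are shown because these subunits lie near each other on chromosome 6 and gave different readings. The window upstream of TAP2 lies at chr6:32838740-32838989. That upstream of TAP1, at the first of its 2 listed starts, lies at chr6:32853705-32853954. Both are on the minus strand of GRCh38.p14 as listed by RefSeq. Each run holds the 250 bases upstream of the start, read 5′ to 3′ on the strand of the gene. Capitals mark letters that match the searched spelling of an interferon regulatory factor element, a STAT element, a CREB/ATF site, an NF-Y box or an NF-kB element. Other forms of these elements stay in lower case.
TAP2 upstream sequence: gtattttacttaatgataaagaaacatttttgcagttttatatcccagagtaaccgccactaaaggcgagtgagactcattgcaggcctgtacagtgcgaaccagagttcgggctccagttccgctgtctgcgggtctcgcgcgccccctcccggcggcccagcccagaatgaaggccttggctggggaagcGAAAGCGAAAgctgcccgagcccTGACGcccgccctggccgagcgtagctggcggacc
TAP1 upstream sequence: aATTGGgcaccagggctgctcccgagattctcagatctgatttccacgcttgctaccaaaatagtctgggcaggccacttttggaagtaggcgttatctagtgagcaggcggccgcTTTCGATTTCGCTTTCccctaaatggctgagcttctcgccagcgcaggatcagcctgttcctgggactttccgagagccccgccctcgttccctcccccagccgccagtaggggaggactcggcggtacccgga

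In the RefSeq order of genes PSMB8 lies between TAP2 and TAP1, and PSMB9 follows TAP1 on the other strand, with 488 bases between the start sites of TAP1 and PSMB9. PSMB9 encodes a catalytic subunit of the immunoproteasome, the proteasome form that interferon induces and that favours peptides fit for class I. PSMB9 read 38.0 with siRNA 1 and 42.7 with siRNA 2, against 70.2 in the control, log2 differences of -0.88 and -0.72. The next PSMB9 probe set read 28.9 and 40.3 against 57.9 in the control (-1.0 and -0.52), and the dimmest 28.3 and 32.2 against 33.7 (-0.25 and -0.067). PSMB9 was therefore lowest with siRNA 1 in all 3 probe sets, at intensities close to the floor, while TAP1, which starts beside it, was not lower with siRNA 1. PSMB8, another immunoproteasome subunit gene, was not above the floor on any array, with 11.2 for siRNA 1 and 11.98 for siRNA 2, against 14.4 in the control.

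Tapasin, the bridge between the transporter and empty class I molecules, differed from the control mainly with siRNA 2. The probe set with the highest TAPBP signal read 408 with siRNA 1 and 614 with siRNA 2, against 371 in the control, log2 differences of 0.14 and 0.73. With siRNA 2 this was 1.66-fold higher, and 2.36% of measured genes were at least as high. TAPBP was the only member 1.5-fold or more apart between the siRNA libraries, with siRNA 1 lower than siRNA 2 by 0.59 on the log2 scale, where 4.87% of measured genes were 1.5-fold or more lower and 6.52% higher, against 0 of 8 members higher. The other probe sets varied. One read 33.0 with siRNA 1 and 39.8 with siRNA 2, against 26.4 in the control, near the detection floor, with differences of 0.32 and 0.59. Another read 47.7 and 50.9 against 44.9 in the control (0.085 and 0.18), and the fourth read 34.3 and 45.6 against 44.3 (-0.37 and 0.042). The siRNA 2 array was highest in all 4 measured probe sets, but the difference from the control ranged from 0.042 to 0.73, and the fifth probe set was under the floor. The mean TAPBP difference with siRNA 2 was 0.39 over the 4 measured probe sets, and 0.31 when the fifth was included at 0. The sequence upstream of TAPBP is shown for its overlapping matches next to the start. It lies at chr6:33314079-33314328 on the minus strand of GRCh38.p14.
TAPBP upstream sequence: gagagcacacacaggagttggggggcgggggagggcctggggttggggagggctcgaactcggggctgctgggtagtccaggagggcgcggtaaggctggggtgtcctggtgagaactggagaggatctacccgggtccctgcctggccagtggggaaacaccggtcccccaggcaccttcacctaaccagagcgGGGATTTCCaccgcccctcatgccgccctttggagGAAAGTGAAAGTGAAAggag

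**Figure D2:**
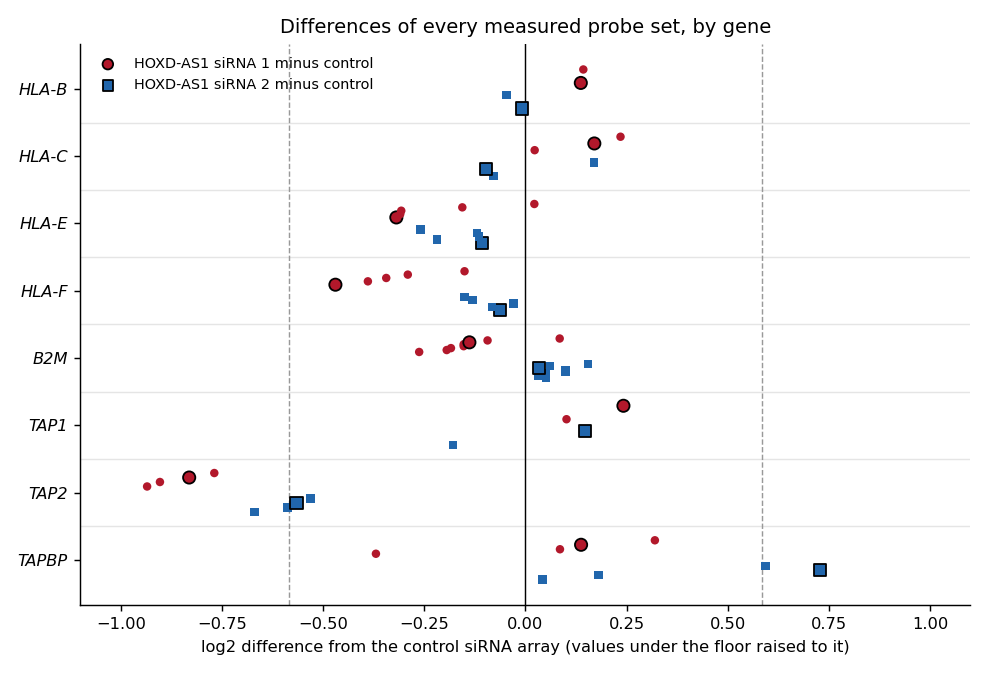
Log2 difference from the control siRNA array (horizontal axis) of each measured probe set, by gene, with circles for HOXD-AS1 siRNA 1 and squares for HOXD-AS1 siRNA 2. Outlined symbols are the probe sets used for the genes and dashed lines mark 1.5-fold; all TAP2 symbols lie at -0.53 or lower, while those of TAPBP spread from -0.37 to 0.73.

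The classical heavy chains HLA-B and HLA-C, which present peptides to cytotoxic T cells, stayed close to the control on both siRNA arrays. HLA-B read 899 with siRNA 1 and 813 with siRNA 2, against 818 in the control, log2 differences of 0.14 and -0.0081. Its next probe set read 627 and 550 against 568 in the control (0.14 and -0.047). The siRNA 1 array was the highest in both, and siRNA 2 was below the control in both by less than 0.05, though quantile normalization turned the first of these values to 0.017. HLA-C read 757 with siRNA 1 and 629 with siRNA 2, against 673 in the control, differences of 0.17 and -0.098, and its other 2 probe sets differed by 0.24 and 0.17, and by 0.023 and -0.079. One further HLA-B probe set and the probe set shared by HLA-B and HLA-C (5.73 with siRNA 1, 6.50 with siRNA 2 and 7.10 in the control) were under the floor.

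HLA-E and HLA-F, nonclassical heavy chains that natural killer cell receptors recognise, were lower than the control with siRNA 1. HLA-E presents leader peptides cut from other class I chains. It read 193 with siRNA 1 and 223 with siRNA 2, against 241 in the control, differences of -0.32 and -0.11. Of 5 measured HLA-E probe sets 4 were lower with both siRNAs, and the fifth differed by 0.022 with siRNA 1 and -0.26 with siRNA 2. HLA-F read 75.5 with siRNA 1 and 100.05 with siRNA 2, against 104 in the control, differences of -0.47 and -0.063, or 1.38-fold and 1.04-fold lower. All 5 measured HLA-F probe sets were lower with both siRNAs, by -0.47 to -0.15 with siRNA 1 and by -0.15 to -0.030 with siRNA 2, while 5 others were under the floor. In 1 of the measured 5 both siRNA arrays were at the floor (23.2 with siRNA 1 and 24.2 with siRNA 2, against 28.8 in the control), so its difference of -0.15 is a lower bound on the size. The mean over the 5 measured HLA-F probe sets was -0.33 with siRNA 1, and -0.16 when the 5 under the floor were included at 0. As low an HLA-F difference or lower was seen in 9.38% of measured genes with siRNA 1 and in 38.3% with siRNA 2. Of the 15 measured heavy chain probe sets 11 carried the suffix _x_at, by which the array's maker marks probes that can also bind other transcripts, so the heavy chain values may mix loci.

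B2M, the invariant light chain that every class I heavy chain needs to reach the cell surface, differed little. It read 3996 with siRNA 1 and 4503 with siRNA 2, against 4399 in the control, differences of -0.14 and 0.034. Over its 8 probe sets the differences ran from -0.26 to 0.085 with siRNA 1 and from 0.032 to 0.16 with siRNA 2. A pair of these probe sets held identical values on all 3 arrays (2014 with siRNA 1, 2397 with siRNA 2 and 2238 in the control) and count as 1 reading. In 6 of the 7 readings siRNA 1 was lowest and siRNA 2 highest, and in the dimmest (359 with siRNA 1 and 377 with siRNA 2, against 339 in the control) both siRNA arrays were above the control. The upstream sequences of B2M and HLA-B are shown as examples of promoters whose genes stayed near the control. The B2M window lies at chr15:44711267-44711516 on the plus strand and the HLA-B window at chr6:31357180-31357429 on the minus strand of GRCh38.p14.
B2M upstream sequence: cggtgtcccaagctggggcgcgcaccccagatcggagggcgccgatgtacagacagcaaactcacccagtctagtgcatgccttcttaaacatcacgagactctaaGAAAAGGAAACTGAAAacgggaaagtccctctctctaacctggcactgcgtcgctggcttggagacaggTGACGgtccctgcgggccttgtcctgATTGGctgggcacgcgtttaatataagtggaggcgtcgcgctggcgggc
HLA-B upstream sequence: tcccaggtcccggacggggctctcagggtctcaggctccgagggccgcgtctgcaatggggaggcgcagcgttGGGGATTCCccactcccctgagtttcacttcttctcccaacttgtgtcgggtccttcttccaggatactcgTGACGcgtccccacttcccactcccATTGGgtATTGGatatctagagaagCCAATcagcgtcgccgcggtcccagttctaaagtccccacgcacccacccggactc

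NLRC5 was not above the floor on any array. Its brighter probe set read 18.0 with siRNA 1 and 24.9 with siRNA 2, against 13.6 in the control, and the other 4.94 and 4.93 against 4.67. Values under the floor were not compared, so no difference is given for this regulator.

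**Figure D3:**
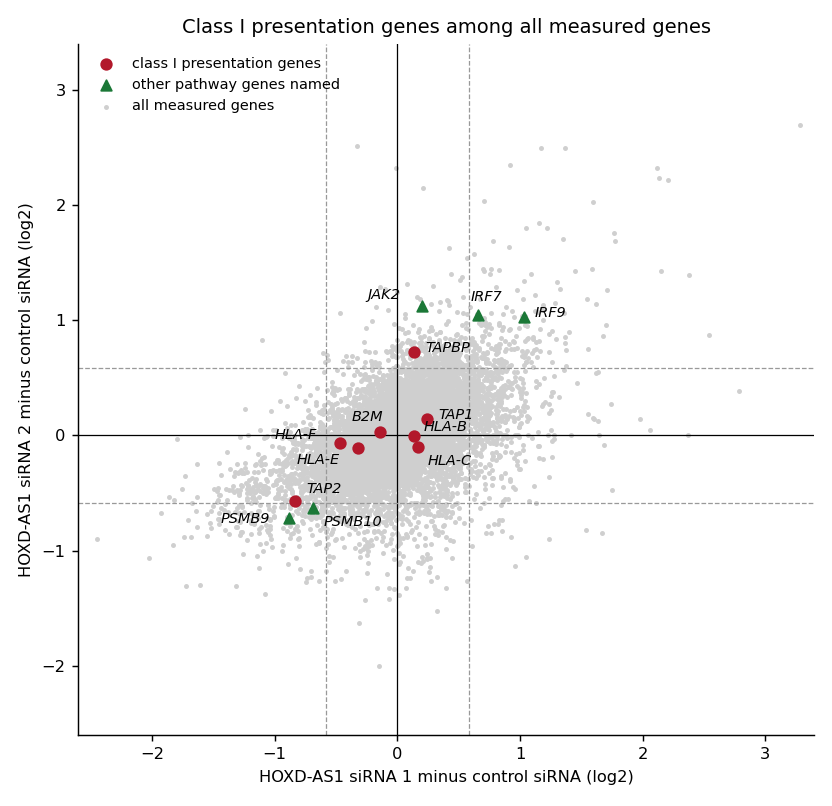
Log2 difference from the control siRNA array with HOXD-AS1 siRNA 1 (horizontal axis) and HOXD-AS1 siRNA 2 (vertical axis) for 11286 measured genes in grey, the 8 measured class I presentation genes as circles and 5 other pathway genes as triangles. Dashed lines mark 1.5-fold; TAP2 lies at -0.83 and -0.57 beside PSMB9 and PSMB10, IRF7 and IRF9 lie at the upper right, and the points share the control array on both axes.

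Other genes of the pathway were read from lists chosen with earlier results of these data known. The shares of all measured genes set beside their counts are therefore description and not a test. Of 18 genes of peptide supply and loading 15 were measured, with medians of 0.15 with each siRNA, and 8 were higher and 4 lower than the control with both. At 1.5-fold 1 was higher (HSPA5, an endoplasmic reticulum chaperone named after its value was seen, by 0.63) and 2 were lower with siRNA 1, beside 6.9% and 6.16% of all measured genes. With siRNA 2, 0 were higher and 2 lower, beside 4.75% and 4.67%, and 0 passed 2-fold with either siRNA. ERAP1, named after its value was seen, read 32.5 with siRNA 1 and 35.4 with siRNA 2, against 21.9 in the control. Its differences of 0.32 and 0.45 are lower bounds against a control under the floor. With siRNA 2 the floor keeps it out of the 1.5-fold count, whereas with siRNA 1 the readings themselves lie inside 1.5-fold. The 2 lower genes were the same with both siRNAs, PSMB9 and PSMB10, where 1.52% of all measured genes were 1.5-fold lower with both. PSMB10, a further catalytic subunit gene of the immunoproteasome, read 247 with siRNA 1 and 257 with siRNA 2, against 398 in the control, differences of -0.69 and -0.63. Its other 2 probe sets differed by -0.70 and -0.59, and by -0.77 and -0.63, so the control was highest in all 3. The 3 constitutive counterparts of the immunoproteasome subunit genes, PSMB5, PSMB6 and PSMB7, were also lower with both siRNAs but by less than PSMB10. Their medians were -0.25 and -0.24, with a largest difference of -0.35. The remaining measured genes of the list, among them the endoplasmic reticulum chaperones, differed by -0.31 to 0.63 with siRNA 1 and by -0.53 to 0.53 with siRNA 2.

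Of 20 transcription regulators of class I genes, a list also chosen with earlier results known, 17 were measured, with medians of 0.076 with siRNA 1 and 0.086 with siRNA 2. At 1.5-fold 5 of the 17 were higher and 0 lower with siRNA 1, beside 6.9% and 6.16% of all measured genes. With siRNA 2, 2 were higher and 0 lower, beside 4.75% and 4.67%. The 5 were IRF9, IRF7, IRF1 (0.74), NFYA (0.88) and CREB1 (0.79), the last 3 named after their values were seen. IRF9 and IRF7 were the 2 with siRNA 2. There IRF1 differed by 0.52 and CREB1 by 0.086, while NFYA went the other way, by -0.33. EZH2, also named after its value was seen, read 17.6 with siRNA 1 and 25.8 with siRNA 2, against 35.9 in the control. Both siRNA values are under the floor, so its difference of -0.47 with each is a lower bound on the size. With siRNA 1 the floor thus keeps EZH2 out of the count of genes 1.5-fold lower. With siRNA 2 the EZH2 readings themselves lie inside 1.5-fold. IRF9, the DNA-binding subunit of the factor formed after type I interferon signalling, read 278 with siRNA 1 and 278 with siRNA 2, against 136 in the control, differences of 1.03 each. Its 3 other probe sets were also higher, by 0.43 to 0.78 and by 0.34 to 0.75. IRF7, which drives type I interferon genes, had 1 probe set, which read 269 with siRNA 1 and 351 with siRNA 2, against 170 in the control, differences of 0.66 and 1.04. Both siRNA arrays were thus above the control for IRF9 and IRF7, where 1.83% of measured genes were 1.5-fold higher with both. Of 8 measured interferon receptor and kinase genes only JAK2, a kinase of the interferon gamma receptor, passed 1.5-fold, with siRNA 2, where 4.75% of all measured genes were as much higher, so 1 of 8 does not set this list apart. JAK2 read 51.2 with siRNA 1 and 97.2 with siRNA 2, against 44.7 in the control, differences of 0.20 and 1.12, and its other probe sets were higher with siRNA 2 by 0.90 and by at least 1.21, the second against a control under the floor. Beside these values the interferon-responsive class I genes did not go one way. In the probe set used for each gene, TAP2, PSMB9, PSMB10, HLA-E and HLA-F were lower with both siRNAs, and TAP1 and TAPBP were higher with both. HLA-B, HLA-C and B2M went opposite ways with siRNA 1 and siRNA 2, by less than 1.5-fold. In these probe sets only PSMB9 and PSMB10 passed 1.5-fold with both siRNAs, which depends on the probe set. Other TAP2 probe sets also passed it with both (-0.94 and -0.67, and -0.90 and -0.59). The other PSMB9 probe sets did not (-1.0 and -0.52, and -0.25 and -0.067). The source labels of the 3 arrays also differ, and the part of that in these values cannot be told apart.

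**Figure D4:**
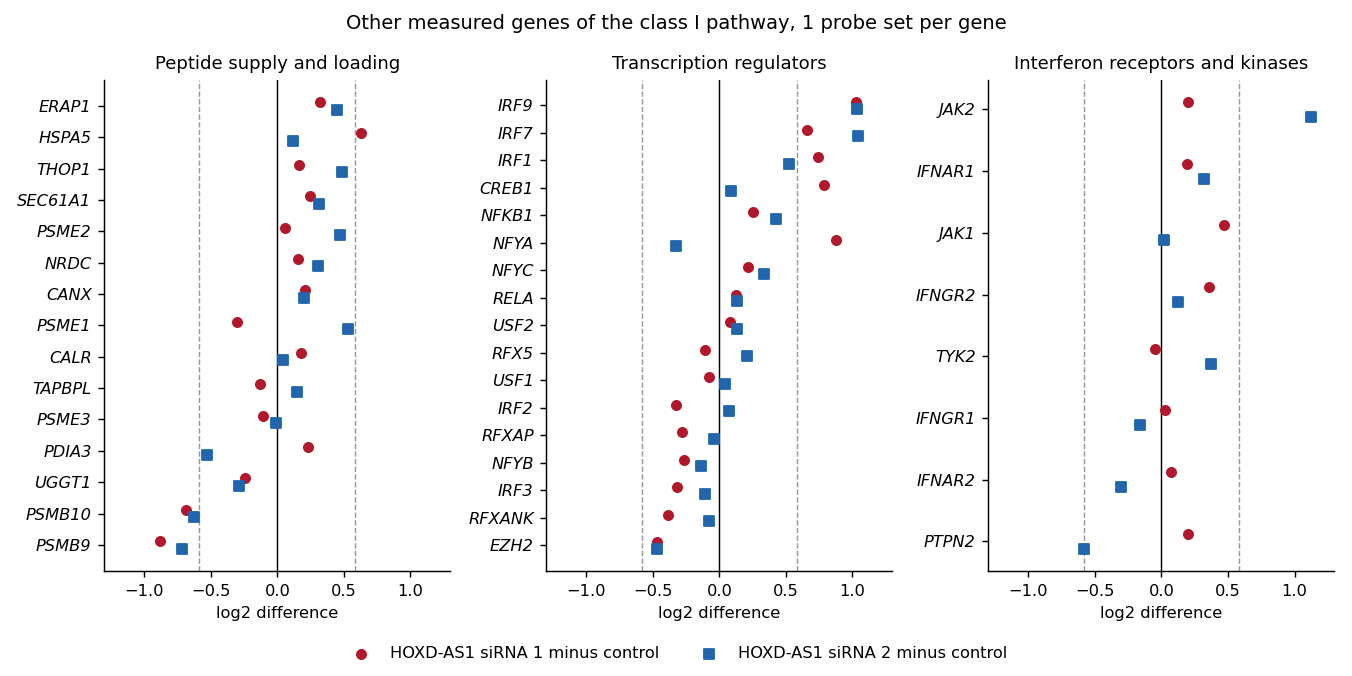
Log2 difference from the control siRNA array (horizontal axis) of each measured gene of 3 lists, with circles for HOXD-AS1 siRNA 1 and squares for HOXD-AS1 siRNA 2, ordered by the mean of both. Dashed lines mark 1.5-fold; PSMB9 and PSMB10 lie lowest among the genes of peptide supply and loading, and IRF9 and IRF7 highest among the regulators.

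Promoter windows were listed for 7 of the 9 member genes, 8 windows in all because TAP1 had 2 starts. Letters were searched on both strands of the 250 upstream bases. The core of an interferon regulatory factor element, GAAA followed by any 2 bases and a further GAAA, was found before TAP2, TAP1, TAPBP, B2M and HLA-F, 5 of 7 genes, and in 3.02% of all 35116 windows. In TAP1, TAPBP and B2M the 2 matches overlap each other and form 1 longer run. In TAP2 the match lies 58 to 49 bases before the start, and in TAPBP the matches lie 20 to 5 bases before it. TGACG, a CREB/ATF site, was found in 4 of 7 genes and 21.2% of all windows, and CCAAT, the NF-Y box, in 5 of 7 and 32.0%. TTCNNNGAA, a STAT element, was found in 1 of 7 (TAP1, at its second start) and 6.57%. GGGNNTTCC, a spelling of an NF-kB element, was found in 2 of 7 (HLA-B and TAPBP) and 5.78%. Only these spellings were searched, so a window without a match can still hold another form of an element. TAP2 held no CCAAT, whereas HLA-B, HLA-C and HLA-F held 2 to 4 matches each. Within the 250 upstream bases, the interferon regulatory factor element was also found before PSMB10 and not before PSMB9. The TAP1 matches lie between the TAP1 and PSMB9 starts, which are 488 bases apart, but outside the PSMB9 window, so they were not counted for PSMB9. In the probe set used for each gene with this element, TAP2, PSMB10 and HLA-F were lower with both siRNAs and TAP1 and TAPBP were higher with both. B2M was lower with siRNA 1 and higher with siRNA 2. In the probe sets used, PSMB10 passed 1.5-fold with both siRNAs, TAP2 with siRNA 1 only and TAPBP with siRNA 2 only. A match describes letters only.

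**Figure D5:**
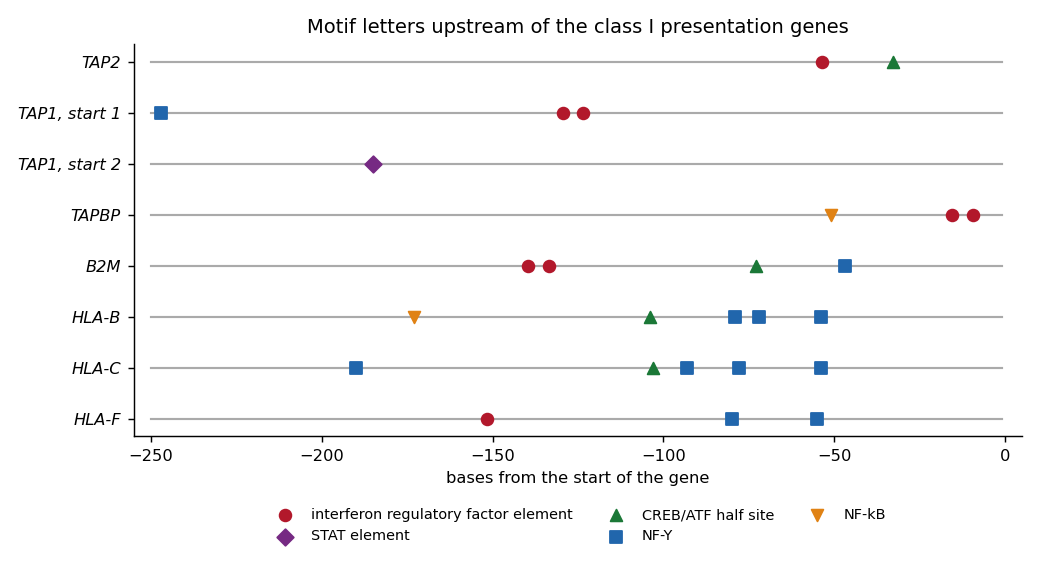
Positions of motif matches in the 250 bases upstream of each listed start (horizontal axis, bases from the start of the gene), 1 line per window. Circles mark the interferon regulatory factor element, diamonds TTCNNNGAA, upward triangles TGACG, squares CCAAT and downward triangles GGGNNTTCC; TAP2, TAP1, TAPBP, B2M and HLA-F carry circles.

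By the distance between the pairs of log2 differences from the control, over 2 differences that share 1 array, the 5 measured genes nearest to TAP2 were HRAS, PEMT, SLC29A2, DUT and TERT. Their distances were 0.013 to 0.040. HRAS, a small GTPase gene, differed by -0.84 and -0.58, and DUT, which encodes the enzyme that removes dUTP, by -0.80 and -0.59.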

How the data were processed

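Affymetrix arrays of 3 LNCaP cultures, 1 per group, were read from 1 deposited table. The authors deposited probe set intensity values on a linear scale. The software was GCOS 1.4, per the submitters' processing notes, and background correction, summarisation and normalization are not given in the sources used here. Between arrays, log2 values of equal rank were within 0.098 of each other, so arrays brought to a common distribution before deposit would hide a shift of most transcripts.

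Values were floored at the median (25.96) and put on the log2 scale with pandas 2.3.3. Symbols came from the platform annotation, with 44988 probe sets of 1 gene, 1831 of several and 2569 not listed. The probe set brightest on average (mean log2) stood for its gene. No test was made, and differences are siRNA minus control. The code was tested on simulated data. All members are named, and of other lists the genes 1.5-fold from the control with both siRNAs one way or 2-fold with 1, beside whole short lists and markers. Any further gene was chosen after its values were seen. The 5 nearest genes were named by distance. Promoter sequences are RefSeq's. The members and lists were chosen with earlier results of these data known. Alternatives changed the floor, the scaling, the probe set rule and the fold threshold. Some genes of the lists were not analysed here.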

Additional observations from a re-analysis of the deposited data

How the results depend on the processing

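Restricting the peptide supply and loading list to plain probe sets kept 4 of its 15 genes, and the median was then -0.21 with siRNA 1 and -0.29 with siRNA 2 instead of 0.15 each, with fewer genes counted. The threshold of 1.5-fold gave 1 member lower with siRNA 1 and 1 higher with siRNA 2, where 2-fold gave 0. Under all alternatives run the member medians ran from -0.14 (plain probe sets, 2 genes) to 0.14 (other floors, 7 or 9 genes) with siRNA 1 and from -0.058 to -0.0081 with siRNA 2. TAP2 ran from -0.86 to -0.70 with siRNA 1 and from -0.59 to -0.55 with siRNA 2. With all probe sets of a gene averaged, those under the floor at 0, TAPBP with siRNA 2 was 0.31 instead of 0.73, TAP1 with siRNA 2 was -0.016 instead of 0.15, and HLA-F with siRNA 1 was -0.16 instead of -0.47 (-0.33 over its measured probe sets), and with only plain probe sets HLA-F was -0.15. Quantile normalization gave HLA-B 0.017 with siRNA 2 instead of -0.0081, and no other measured member changed sign under it or under centring. Signal near the floor limits NLRC5, PSMB8 and the dimmest probe sets. No paired analysis was possible because each group held 1 array.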

Other observations

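Class II genes and class I-like ligands were mostly within 1.5-fold of the control. Of 12 class II genes 7 were measured, with medians of 0.17 with siRNA 1 and -0.0085 with siRNA 2, and 0 were 1.5-fold or more from the control. Their differences ran from -0.094 to 0.52 with siRNA 1 and from -0.33 to 0.45 with siRNA 2. CD74, the invariant chain, and HLA-DRA were under the floor on all 3 arrays. Of 14 class I-like molecules and natural killer cell ligands 10 were measured, with medians of 0.084 with siRNA 1 and 0.0015 with siRNA 2. Their differences ran from -0.48 to 0.98 with siRNA 1 and from -0.60 to 0.54 with siRNA 2. At 1.5-fold 1 of them was higher with siRNA 1 (RAET1L) and 1 lower with siRNA 2 (ULBP3), both named after their values were seen, beside 6.9% and 4.67% of all measured genes. RAET1L read 51.3 with siRNA 1 and 23.7 with siRNA 2, against 18.7 in the control, so its difference of 0.98 with siRNA 1 is a lower bound against a control under the floor. ULBP3 read 47.5 with siRNA 1 and 25.6 with siRNA 2, against 39.4 in the control, and its difference of -0.60 with siRNA 2 is likewise a bound.

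Across the arrays 188 probe sets held the same values as another probe set on all 3 arrays, as the B2M pair did. Of 5 stromal and endothelial markers 3 were measured, with summed intensities of 93.2 with siRNA 1, 124 with siRNA 2 and 84.3 in the control. COL3A1, a fibrillar collagen gene, read 28.4 with siRNA 1 and 50.4 with siRNA 2, against 17.9 in the control, so its difference of 0.96 with siRNA 2 is a lower bound against a control under the floor, and its part in the members' values was not tested. COL1A1 and VWF differed by -0.018 and 0.31 with siRNA 2, and DCN and PECAM1 were under the floor.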
